A study of Mus musculus with 12 samples.

Results

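The axoneme and flagellum structure genes are the mouse genes for parts of the sperm tail's microtubule core and for the factors that put its motors together. They were taken by symbol from the arrays' gene names, as the families *Dnah*, *Dnal*, *Dnaaf*, *Rsph*, *Tekt* and *Cfap* with *Spag6*, *Spag16*, *Spag17*, *Hydin*, *Ccdc39*, *Ccdc40* and *Mns1*, without use of their expression. The arrays measured 61 such genes with 101 probesets, of 18193 genes with 34945 probesets that name 1 gene. Expression was measured on 12 Affymetrix mouse arrays in testicular cells sorted by flow cytometry from males aged 8 to 10 weeks. PWD/Ph (PWD) is an inbred strain derived from wild *Mus m. musculus* mice, and C57BL/6J (B6) is a laboratory strain mostly of *Mus m. domesticus* origin. Each strain gave 3 populations. Prepachytene cells were primary spermatocytes in leptotene, zygotene and early pachytene, pachytene cells were those in mid-late pachytene and diplotene, and spermatids were the haploid cells that follow meiosis. The 6 groups had 2 replicate arrays each, and p-values rest on the spread between replicates, estimated over all 6 groups together. The study's methods state that RNA expression was measured in biological replicates. Both strains were inbred, and the labels name no treatment.

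The axoneme is the cylinder of microtubule doublets around a central pair of single microtubules that runs through motile cilia and the sperm tail. Outer and inner dynein arms on each doublet walk along its neighbour and bend the tail, radial spokes and the central pair regulate them, and tektins lie inside the doublet wall. Dynein arms are assembled in the cytoplasm by a separate set of chaperone-like factors before they are carried into the tail, and the male germ cell builds its axoneme after meiosis, in the spermatid. In ciliated cells, RFX factors bind the X-box, an imperfect palindrome whose arm reads GTTGCCA or GTTGCTA in many ciliary promoters, while CREM binds the CRE in promoters of spermatids.

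Promoter sequences from RefSeq (GRCm38.p6) covered 52 of the 61 genes in 58 windows, each of 250 bases before and 50 bases after a transcription start. The X-box arm, searched on both strands as GTTGCCA or GTTGCTA, lay in the windows of 25 of the 52 genes (48.1%), against 8.77% of 27025 genes with a window. GTTGCTA was in 18 of the axoneme genes (34.6%, against 4.28% of all genes) and GTTGCCA in 9 (17.3%, against 5.02%). The CRE, TGACGTCA, which reads alike on both strands, was in 1 axoneme gene, *Dnah6* (1.9%, against 2.03% of all genes), apart from the X-box arm there. Of the other axoneme genes in the lists described further on, 23 of 39 (59.0%) held the X-box arm. It was in 361 of 2787 measured genes (13.0%) that were at least 1 log2 unit higher in pachytene than in prepachytene cells when the axoneme genes were left out. The 10 stretches that follow, chosen after their matches were seen, show how the arm sits close to the start site in genes of different parts of the axoneme. Each gives 80 bases before the start and 20 bases from it, 5′ to 3′ on the gene's own strand, and capitals mark the arm, which reads TGGCAAC or TAGCAAC where it lies on the opposite strand.
Cfap161, chr7:83794820-83794919, minus strand: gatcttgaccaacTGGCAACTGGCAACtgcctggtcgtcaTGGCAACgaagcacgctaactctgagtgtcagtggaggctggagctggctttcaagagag
Hydin, chr8:110266897-110266996, plus strand: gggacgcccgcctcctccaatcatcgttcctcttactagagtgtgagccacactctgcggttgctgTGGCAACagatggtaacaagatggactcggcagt
Dnah6, chr6:73221612-73221711, minus strand: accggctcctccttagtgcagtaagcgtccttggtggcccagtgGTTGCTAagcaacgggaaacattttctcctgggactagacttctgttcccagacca
Tekt1, chr11:72361863-72361962, minus strand: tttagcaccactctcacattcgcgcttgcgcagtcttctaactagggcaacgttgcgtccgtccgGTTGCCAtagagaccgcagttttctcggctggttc
Tekt3, chr11:63061579-63061678, plus strand: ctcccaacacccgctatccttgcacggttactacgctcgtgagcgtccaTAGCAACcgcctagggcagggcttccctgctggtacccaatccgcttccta
Cfap45, chr1:172521050-172521149, plus strand: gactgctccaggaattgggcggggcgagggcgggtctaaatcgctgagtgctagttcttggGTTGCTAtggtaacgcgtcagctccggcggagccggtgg
Mns1, chr9:72438449-72438548, plus strand: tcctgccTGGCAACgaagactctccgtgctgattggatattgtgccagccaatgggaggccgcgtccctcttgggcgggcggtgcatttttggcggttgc
Dnaaf2, chr12:69198410-69198509, minus strand: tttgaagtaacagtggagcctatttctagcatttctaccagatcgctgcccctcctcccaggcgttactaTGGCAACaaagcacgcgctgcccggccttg
Cfap69, chr5:5664213-5664312, minus strand: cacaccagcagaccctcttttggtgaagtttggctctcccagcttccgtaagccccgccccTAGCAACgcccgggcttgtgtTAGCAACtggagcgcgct
Cfap298, chr16:90934830-90934929, minus strand: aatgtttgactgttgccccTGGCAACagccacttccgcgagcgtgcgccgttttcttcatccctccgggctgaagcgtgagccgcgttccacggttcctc

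In the stretch of *Cfap161* the arm occurs 3 times, and in that of *Cfap69* it occurs on both sides of the start. The match in *Tekt1* begins 15 bases before the start and that in *Dnaaf2* 10 bases before it, while that in *Mns1* begins 73 bases before it. Within all windows that hold a match, 22 of 26 windows of the axoneme genes (84.6%) had it in the last 100 bases before the start or after it, against 1492 of 2508 windows of all genes (59.5%). By the classes of timing given further on, 11 of 20 axoneme genes that peaked in pachytene cells had a match. So had 6 of 12 of those high in pachytene cells and spermatids with no called difference between them. Among those that peaked in spermatids it was 5 of 11. A match is a run of letters, and binding was not measured.

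**Figure D1:**
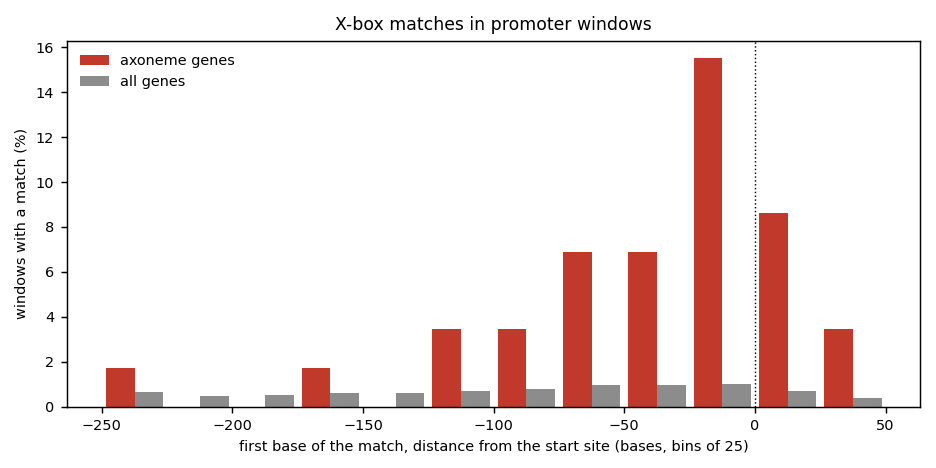
Percent of promoter windows with an X-box arm whose first base lies in each 25-base bin (x axis, bases from the transcription start, negative before it; y axis, percent of windows), for axoneme genes in red and for all genes in grey. The bin just before the start held a match in 15.52% of the windows of axoneme genes and 1.02% of those of all genes.

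The deposited values were on a log2 scale, and values are given as log2 expression of the probeset with the highest mean in each gene. A level above 5.30 was called above background, which was the 95th percentile of 41 probesets of 32 genes that belong to organs other than the testis. Differences were tested with limma over all 45037 probesets and called at a Benjamini-Hochberg adjusted p under 0.05, and errors of differences are standard errors. Where a group lay under background, its fold difference is given as at least that between the other group and the background level. Replicate arrays correlated at 0.987 to 0.996. Sums over a marker list are given on the log2 scale, taken after its genes' signals were added, so that the most abundant genes weigh most. A spermatid marker list had 10 genes, all above background in every group. Its sum was 16.77 and 17 in PWD and 15.97 and 16.05 in B6 prepachytene cells. In pachytene cells it was 14.97 and 14.67 in PWD and 14.38 and 14.21 in B6. In spermatids it was 17.1 and 17.57 in PWD and 17.84 and 17.81 in B6. The prepachytene arrays thus held more spermatid marker RNA than the pachytene arrays. The summed Sertoli list (5 of 10 genes above background, with *Sox9*, *Amh* and *Gata4* below it) was 14.56 to 15.23 in prepachytene, 8.53 to 9.26 in pachytene and 9.86 to 11.18 in spermatid arrays of both strains. Pachytene markers were higher in pachytene than in prepachytene cells in 7 of 8 genes, and the 10 prepachytene markers were all lower. Of an efferent duct and rete testis list, the nearest cells with motile cilia, *Krt8* alone of 6 genes was above background, with *Pax8*, *Krt7*, *Krt19*, *Aqp1* and *Cdh16* below it. The sum of that list was 5.06 to 6.18 in prepachytene, 8.22 to 10.2 in pachytene and 8.01 to 9.26 in spermatid arrays, so that it was higher from pachytene on like most axoneme genes. The part of these other cells in the results was not tested, and fewer cells of a type and less RNA per cell cannot be told apart in bulk RNA.

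Transcripts of 55 of the 61 axoneme genes were above background in at least 1 group, and 45 in all 6. The 12-array mean was above background in 54 genes (88.5%), against 49.0% of all genes. *Dnah5*, *Dnah11*, *Dnah17*, *Rsph4a*, *Cfap47* and *Cfap20dc* did not reach background in any group. In prepachytene cells 48 genes were above background in PWD and 50 in B6, in pachytene cells 52 and 53, and in spermatids 53 in each strain.

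**Figure D2:**
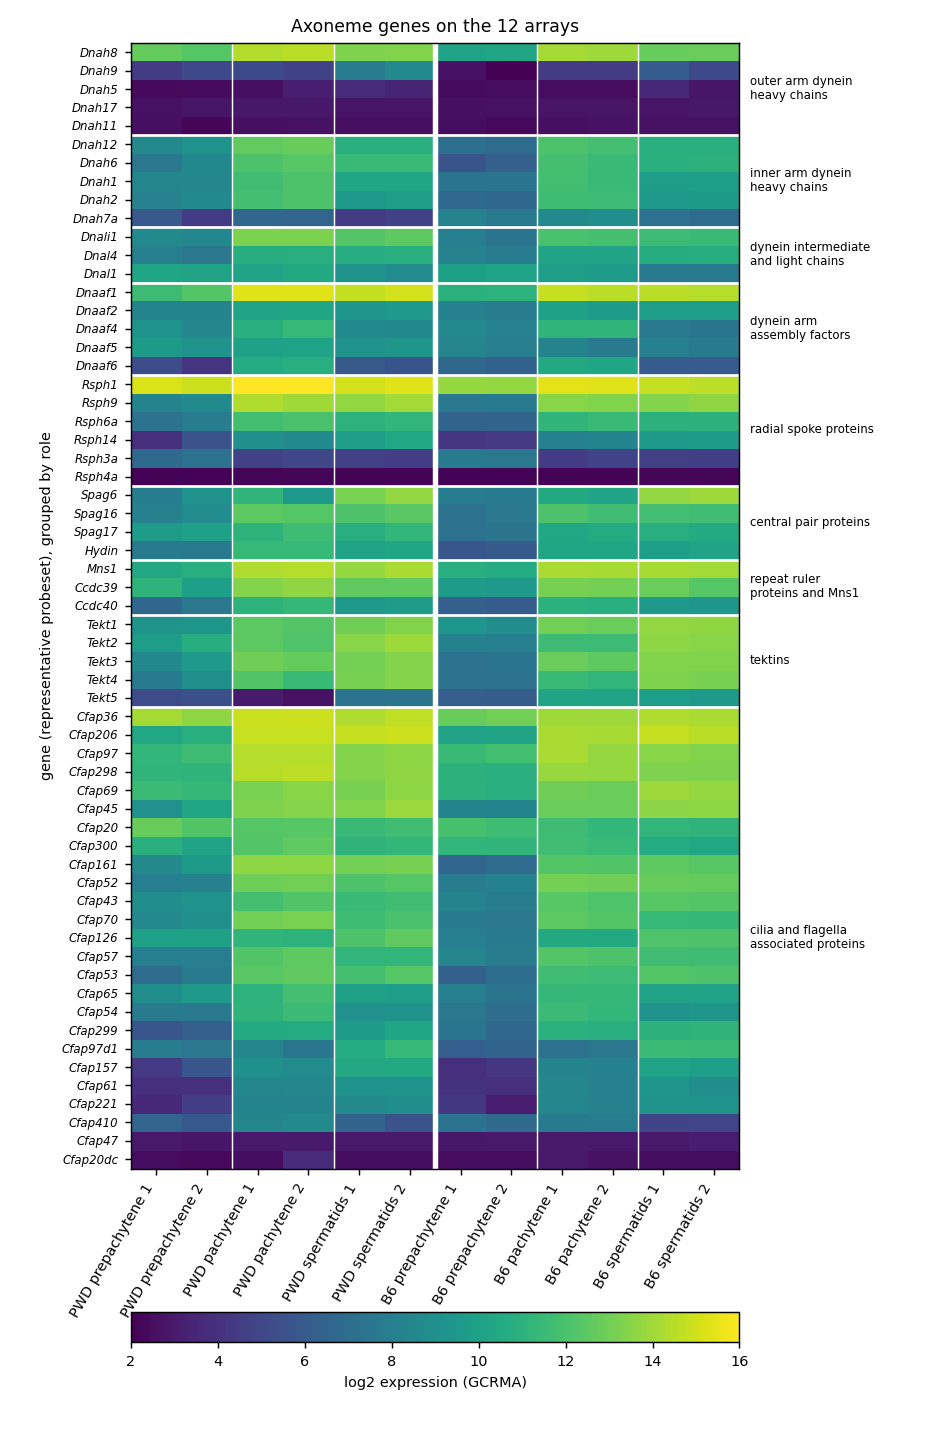
Heat map of log2 expression of the 61 axoneme genes (rows, grouped by role) on the 12 arrays (columns, PWD left of B6, populations in order of maturation). Colour runs from dark purple (low) to yellow (high). Most rows turn lighter from pachytene on in both strains, and the 6 genes that stayed under the background level of 5.30 form dark rows.

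Between prepachytene and pachytene cells the axoneme genes rose nearly as a body. With both strains together, 53 of 61 were higher in pachytene cells, against 43.7% of all genes, and *Rsph3a* alone was lower, against 28.4% of all genes. The median difference of the 61 genes was 3.28 log2 units, and that of all genes was 0.08. At least 1 log2 unit separated the populations in 49 genes that were higher (19.3% of all genes) and in *Rsph3a* (22.4% of all genes lower by as much). *Dnah11* and *Dnah17* are among the 53 although they stayed under background, with differences of 0.22 and 0.17. In PWD alone 51 genes were higher and 2 lower (38.7% and 25.7% of all genes), with a median of 3.05, and in B6 alone 48 and 1 (23.2% and 24.1% of all genes), with a median of 3.69.

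*Rsph9*, a protein of the radial spoke head, showed the largest difference. It was at 14.31 and 14.02 in pachytene against 8.32 and 8.66 in prepachytene cells of PWD, and at 13.53 and 13.35 against 7.62 and 7.75 in those of B6. The groups lay far apart in both strains, and the difference was 5.72 ± 0.12 log2 units, or 52.6-fold (adjusted p = 1.4e-08). *Cfap53*, which in mammals is needed for cilia of the embryonic node, differed by 5.07 ± 0.22 (adjusted p = 3.7e-07), *Cfap161* by 5.00 ± 0.20 (adjusted p = 2.5e-07) and *Cfap52*, a protein of the doublet lumen, by 4.92 ± 0.09 (adjusted p = 9.2e-09). The other genes among the 10 with the largest rise were *Dnah6*, *Dnaaf6*, *Rsph6a*, *Tekt3*, *Cfap70* and *Dnali1*, at 4.44 to 4.96. They come from 6 different roles in the axoneme.

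The step into spermatids split the set. Of the 61, 13 (21.3%) were higher in spermatids than in pachytene cells and 26 (42.6%) were lower, against 18.2% and 23.8% of all genes. The median was −0.21 for the axoneme genes, 0.01 for all genes and −0.32 for genes above background. Centring the arrays on their medians moved the split to 22 higher and 21 lower, and the median of the axoneme genes to 0.05. At least 1 log2 unit separated the populations in 9 genes that were higher (13.6% of all genes) and 14 that were lower (15.1% of all genes). As shares of the axoneme genes these were 14.8% and 23.0%. The share that was higher lay near that of all genes, and the share that was lower lay above it. *Dnah5*, which stayed under background, is among the 13. In PWD alone 10 were higher and 25 lower (13.9% and 21.1% of all genes), and in B6 alone 10 and 17 (17.4% and 18.2% of all genes).

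**Figure D3:**
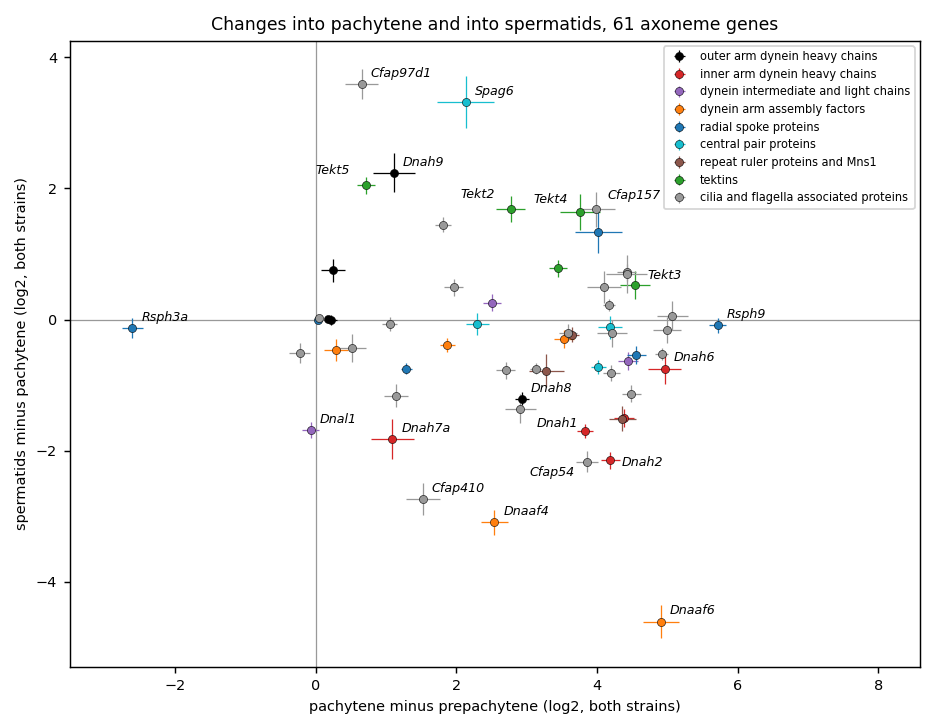
Log2 difference of spermatids minus pachytene cells (y axis) against that of pachytene minus prepachytene cells (x axis) for the 61 axoneme genes over both strains, coloured by role, with standard errors as bars. Inner arm heavy chains in red and *Dnaaf4* and *Dnaaf6* in orange lie below the zero line, tektins in green above it.

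The inner arm dynein heavy chains, the motors of the inner arms, were highest in pachytene cells over both strains. All 5 measured (*Dnah1*, *Dnah2*, *Dnah6*, *Dnah7a* and *Dnah12*) were higher in pachytene than in prepachytene cells, with a median of 4.19, and all 5 were lower in spermatids than in pachytene cells, with a median of −1.70. *Dnah2* was at 8.21 and 8.68 in prepachytene, 11.79 and 12.11 in pachytene and 9.57 and 9.78 in spermatid arrays of PWD. In B6 it was at 6.79 and 6.7, then 11.63 and 11.62, then 9.57 and 9.63. Pachytene arrays were the highest in both strains without overlap, by 4.19 ± 0.13 over prepachytene cells (18.2-fold, adjusted p = 6.7e-08), and spermatids were lower by 2.15 on the log2 scale (SE 0.13, adjusted p = 8.1e-06).

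*Dnah1*, the inner arm chain whose loss in humans causes malformed sperm tails, was at 8.41 and 8.49, 11.73 and 12.07, and 10.23 and 10.28 in prepachytene, pachytene and spermatid arrays of PWD. In B6 it was at 7.38 and 7.4, 11.74 and 11.44, and 9.79 and 9.88. The order of the populations was the same in both strains. Its second probeset, at 5.94 and 6.06 in spermatid against 5.15 and 5.55 in pachytene arrays of PWD, and at 9.19 and 9.2 against 8.3 and 8.29 in those of B6, was higher in spermatids by 0.77 where the first was lower by 1.70 (log2 difference −1.70). *Dnah12* and *Dnah6* followed *Dnah2*, with rises of 4.38 ± 0.14 and 4.96 ± 0.24 into pachytene and differences of −1.50 and −0.75 in spermatids. Within single strains the rise of *Dnah7a* did not pass in B6 (0.82, adjusted p = 0.183), nor did the difference of *Dnah6* in spermatids in either strain (−0.79, adjusted p = 0.144 in PWD and −0.71, adjusted p = 0.155 in B6). The probeset of *Dnah7a* may also take up transcripts of its near copies *Dnah7b* and *Dnah7c*.

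Of the outer arm heavy chains, *Dnah8*, a chain known from the testis, was the one above background in all 6 groups. It was at 14.4 and 14.56 in pachytene against 12.67 and 12.32 in prepachytene cells of PWD, and at 14.14 and 13.95 against 10.11 and 10.25 in those of B6. Spermatids had 13.29 and 13.36 in PWD and 12.74 and 12.81 in B6, between the other populations. The rise into pachytene was 2.93 ± 0.10 (7.61-fold, adjusted p = 8.0e-08) and the difference in spermatids −1.21. Another probeset of *Dnah8* rose into pachytene by 0.63 in PWD (adjusted p = 0.0457) and by 0.5 in B6, which did not pass (adjusted p = 0.137). *Dnah9*, an outer arm chain of airway cilia, went the other way at the second step, with 7.93 and 8.61 in spermatid against 5.14 and 4.7 in pachytene arrays of PWD and 6.07 and 5.09 against 4.47 and 4.41 in those of B6. Pachytene arrays lay under background in both strains, so that spermatids were at least 3.07-fold higher than the background level (mean of both strains, fitted difference 2.24 ± 0.30, adjusted p = 5.1e-04). In PWD alone the fitted difference was 3.35 (adjusted p = 7.1e-04), and in B6 alone, where spermatids averaged 5.58, it was 1.14 and did not pass (adjusted p = 0.0886). *Dnah5*, *Dnah11* and *Dnah17*, the other outer arm chains, were at 2.21 to 3.77 on all arrays. Each was measured by its only probeset, and whether these probesets detect the transcripts was not tested.

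Among the intermediate and light chains, *Dnali1*, a light chain of inner arms, was higher in pachytene cells by 4.44 ± 0.14 (adjusted p = 8.1e-08). *Dnal4*, an outer arm light chain, was at 10.73 and 10.77 in pachytene against 8.1 and 7.57 in prepachytene arrays of PWD and at 10.19 and 10.18 against 8.21 and 7.94 in those of B6, and was 10.68 to 10.81 in spermatids. *Dnal1*, which binds an outer arm heavy chain, had 9.69 to 10.49 on all arrays before spermatids in its main probeset and fell by 1.69 on the log2 scale in them (SE 0.12, adjusted p = 1.9e-05). Another probeset of *Dnal1* was higher in spermatids by 0.84, and that probeset and the remaining one were both higher in pachytene than in prepachytene cells, by 1.53 and 2.21. Likewise another probeset of *Dnali1* was higher by 1.33 where the first was lower (−0.63).

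Factors that assemble the dynein arms were mostly highest in pachytene cells. Of 5 factors, 4 were higher in pachytene than in prepachytene cells (median 2.54) and 3 were lower in spermatids than in pachytene cells, with none higher (median −0.46). *Dnaaf6*, on the X chromosome, was at 5.32 and 4.1, 10.59 and 10.78, and 5.93 and 5.63 in prepachytene, pachytene and spermatid arrays of PWD. In B6 it was at 6.69 and 6.35, 10.51 and 10.22, and 6.07 and 6.01. Every pachytene array stood above every other array of its strain, higher than prepachytene by 4.91 ± 0.25 (30.0-fold, adjusted p = 8.9e-07) and higher than spermatids, which fell by 4.61 (SE 0.25, adjusted p = 5.5e-06). The probeset may take up a near copy, *Dnaaf6b*. *Dnaaf4*, a co-chaperone of the assembly step, was at 8.65 and 8.55 in spermatid against 10.89 and 11.4 in pachytene arrays of PWD, and at 7.64 and 7.43 against 11.18 and 11.16 in those of B6. It fell by 3.09 (SE 0.19, adjusted p = 7.9e-06). Within single strains the other probeset of *Dnaaf4* did not pass at this step (−0.62, adjusted p = 0.0667 in PWD and 0.12, adjusted p = 0.727 in B6). *Dnaaf1* was at 14.45 to 15.05 in spermatids and 14.56 to 15.31 in pachytene cells in its main probeset, a difference of −0.30 that did not pass (adjusted p = 0.181), while its other probeset was lower in spermatids (−1.42, adjusted p = 9.9e-04).

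Of the 6 radial spoke genes 1 was higher and 2 lower in spermatids than in pachytene cells. Of the 4 central pair genes 1 was higher and 1 lower. The shares of all genes were 18.2% higher and 23.8% lower. For *Rsph9* the difference between spermatids and pachytene cells was −0.09 ± 0.12 (adjusted p = 0.759). *Rsph1*, a spoke head protein, was at 13.71 to 16.03 over all arrays and differed by −0.75 in spermatids. *Rsph14* was at 9.81 and 10.39 in spermatid against 9.01 and 8.65 in pachytene arrays of PWD and at 9.54 and 9.75 against 8.16 and 8.32 in those of B6, a rise of 1.34 ± 0.33 (adjusted p = 0.0151).

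*Rsph3a*, a spoke stalk protein, ran against the rest of the set. It was at 4.69 and 5.0 in pachytene against 6.8 and 7.25 in prepachytene arrays of PWD, and at 4.5 and 4.8 against 7.84 and 7.54 in those of B6. Both pachytene groups lay under background, which made it at least 4.16-fold lower (fitted difference −2.61 ± 0.15, adjusted p = 1.8e-06), and spermatids were at 4.59 to 4.66. Its near copy *Rsph3b* may share the probeset. The summed spermatogonia list (5 of 8 genes above background) had the same order, at 10.62 to 11.58 in prepachytene, 5.86 to 6.17 in pachytene and 6.39 to 7.28 in spermatid arrays, as had the Sertoli list, and the part of these cells in the level of *Rsph3a* was not tested.

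*Spag6*, a protein of the central pair, was at 13.21 and 13.72 in spermatid against 11.16 and 9.48 in pachytene arrays of PWD and at 13.75 and 13.93 against 10.53 and 10.17 in those of B6. No spermatid array overlapped a pachytene array, and the rise was 3.32 ± 0.40 (9.98-fold, adjusted p = 2.9e-04). *Spag6* has a near copy, *Spag6l*, whose transcripts the probeset may hold. *Spag16* and *Spag17*, which bind each other in the central apparatus, differed by −0.12 ± 0.17 and −0.07 ± 0.17 between spermatids and pachytene cells, neither of which passed. *Hydin*, a very large central pair protein, was lower by 0.72 in its main probeset (log2 difference −0.72) and higher by 1.79 in another, which lay under background in B6 pachytene cells.

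Tektins, the filament proteins of the doublet lumen, were the role in which most genes were higher in spermatids. All 5 were higher in pachytene than in prepachytene cells over both strains (median 3.44), and 4 of 5 were higher in spermatids than in pachytene cells (median 1.64). For *Tekt1*, *Tekt2* and *Tekt4* both steps passed in each strain alone. *Tekt2* was at 9.81 and 10.71, 12.46 and 12.15, and 13.52 and 13.94 in prepachytene, pachytene and spermatid arrays of PWD. In B6 it was at 8.17 and 8.06, 11.59 and 11.61, and 13.64 and 13.49. Each population lay above the one before it, and spermatids were higher than pachytene cells by 1.69 ± 0.20 (3.23-fold, adjusted p = 2.3e-04). *Tekt4* differed at the same step by 1.64 ± 0.28 (adjusted p = 0.00213) and *Tekt1* by 0.78 ± 0.13 (adjusted p = 0.00215). *Tekt3* had 13.08 and 13.38 against 12.95 and 12.71 in PWD and 13.36 and 13.33 against 12.81 and 12.55 in B6, a difference of 0.53 ± 0.21 that did not pass (adjusted p = 0.0984). *Tekt5* was called higher at both steps over both strains, but the rise into pachytene was measured in B6 alone and the one into spermatids in PWD alone, as given with the strain comparison.

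*Mns1* and the ruler proteins *Ccdc39* and *Ccdc40*, which set the spacing along the doublet, all rose into pachytene. *Mns1* was at 14.31 and 14.46 in pachytene against 10.44 and 10.79 in prepachytene arrays of PWD, and at 14.21 and 14.19 against 10.76 and 10.63 in those of B6 (3.64 ± 0.11, adjusted p = 6.7e-08). Spermatids stayed at 13.81 to 14.2 in both strains, a difference of −0.23 ± 0.11 that did not pass (adjusted p = 0.215). *Ccdc40* was lower in spermatids than in pachytene cells by 1.51 on the log2 scale (difference −1.51).

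**Figure D4:**
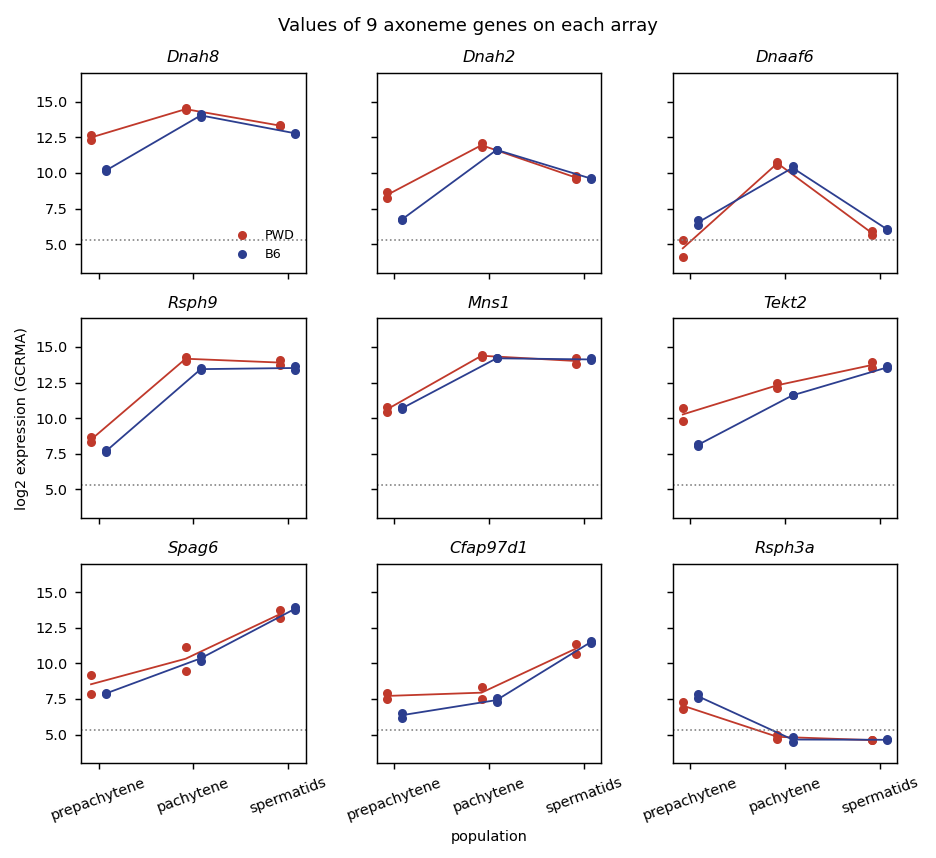
Log2 expression (y axis) on each of the 12 arrays for 9 axoneme genes, with populations along the x axis, PWD and B6 in separate colours and lines through the group means. The dotted line is the background level of 5.30. *Dnaaf6* peaks in pachytene cells, *Tekt2*, *Spag6* and *Cfap97d1* in spermatids, and *Rsph3a* in prepachytene cells.

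The 25 Cfap genes, a family named for its place in cilia and flagella rather than for 1 structure, held all of these courses. In pachytene cells 22 were higher than in prepachytene cells (median 3.59). In spermatids 5 were higher and 10 lower than in pachytene cells, against 18.2% and 23.8% of all genes. *Cfap97d1*, needed for the mouse sperm tail, was at 10.68 and 11.39 in spermatid against 8.36 and 7.51 in pachytene arrays of PWD and at 11.56 and 11.46 against 7.29 and 7.55 in those of B6. This rise of 3.59 ± 0.23 (12.1-fold, adjusted p = 1.1e-05) was the largest into spermatids. *Cfap157* (1.68 ± 0.27) and *Cfap126* (1.45 ± 0.11) also rose.

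*Cfap410* and *Cfap54* were the lowest of the Cfap genes in spermatids relative to pachytene cells. *Cfap54*, a central apparatus protein, was at 9.06 and 9.15 in spermatid against 11.11 and 11.56 in pachytene arrays of PWD and at 9.19 and 9.39 against 11.52 and 11.28 in those of B6 (−2.17 ± 0.16, adjusted p = 1.9e-05). Another probeset of *Cfap54* did not fall at this step in either strain (0.35, adjusted p = 0.32 in PWD and 0.38, adjusted p = 0.251 in B6). *Cfap410* fell by 2.74 (SE 0.24, adjusted p = 5.0e-05) in its main probeset, and another of its probesets was higher by 0.48. *Cfap97* likewise was lower in its main probeset (−0.77) and higher in another (1.34). *Cfap206* was at 14.56 to 14.91 in spermatids and 14.19 to 14.85 in pachytene cells. The difference passed in B6 alone (0.44 ± 0.13, adjusted p = 0.0402) and not in PWD.

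By the calls of both steps, 24 genes peaked in pachytene cells, 15 were high in pachytene cells and spermatids with no called difference between them, 12 peaked in spermatids, *Rsph3a* peaked in prepachytene cells and *Cfap20*, *Dnaaf5* and *Dnal1* had no called peak. All 5 inner arm heavy chains were in the first class and 4 of the 5 tektins in the spermatid class. Of these tektins, *Tekt5* had its highest mean in pachytene cells in B6. The classes rest on values without centring, and centring moved the split into spermatids, as given above. The population with the highest mean was the same in both strains in 44 of the 55 genes above background. Spermatids compared with prepachytene cells had 49 genes higher and 5 lower, against 48.9% and 31.6% of all genes (medians 2.85 and 0.1). *Cfap157*, near background in prepachytene cells, was at least 30.6-fold higher in spermatids and *Rsph14* at least 23.7-fold. The 5 lower ones were *Rsph3a*, *Dnal1*, *Cfap410*, *Cfap20* and *Dnaaf4*. Another probeset was higher in the same comparison for *Dnal1* (2.37), *Cfap410* (1.30) and *Dnaaf4* (0.72). *Dnaaf2* was higher there in its main probeset (1.48) and lower in another (−1.86).

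Other genes of the same machinery, from lists outside the 61, were counted in the same way. Of all genes, 43.7% were higher and 28.4% lower in pachytene than in prepachytene cells. In spermatids compared with pachytene cells these shares were 18.2% and 23.8%. In pachytene compared with prepachytene cells 4 of 5 docking complex genes, 7 of 9 genes of the nexin-dynein regulatory complex that links doublets, 7 of 9 further assembly factors, 13 of 16 further central apparatus and spoke genes and 5 of 8 further lumen proteins were higher, and 1, 0, 1, 1 and 1 were lower. *Spef2*, a central apparatus protein, averaged 9.59 in pachytene and 4.52 in prepachytene cells, and *Tcte1* of the regulatory complex 9.1 and 4.18. The assembly factors again turned down, with 5 of 9 lower and 1 higher in spermatids than in pachytene cells (*Zmynd10*, 12.21 against 13.9), while of the lumen proteins 6 of 8 were higher and none lower (*Saxo1*, 10.58 against 6.98). At the same step 2 of 5 docking complex genes were higher and 2 lower. Of the regulatory complex 2 of 9 were higher and 1 lower. Of the further central apparatus and spoke genes 6 of 16 were higher and 2 lower. Cytoplasmic dynein light chains, which are not confined to the axoneme, had 3 of 8 higher and 3 lower in pachytene cells.

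Among 10 transcription regulators of ciliary and spermatid genes, 6 were higher and 3 lower in pachytene than in prepachytene cells, close to the 43.7% and 28.4% of all genes. *Rfx4* averaged 11.05 in pachytene and 7.31 in prepachytene cells and *Mybl1*, a regulator of meiotic prophase, 11.97 and 9.12. *Foxj1*, the regulator of motile cilia, averaged 3.59, 5.42 and 8.61 in prepachytene cells, pachytene cells and spermatids, and *Crem* 7.77, 10.87 and 12.02. *Foxj1* was thus close to background in pachytene cells. The part of these regulators in the levels of the axoneme genes was not tested.

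PWD and B6 were compared in each population. The arrays' probes follow a reference genome close to B6, so that a strain difference in transcript level and in probe binding cannot be told apart. In prepachytene cells 27 axoneme genes were higher and 4 lower in PWD than in B6, against 16.6% and 5.88% of all genes, with a median of 0.70. The median of genes above background was 0.31 in the same comparison, and after the arrays were centred 25 were higher and 9 lower. A fit of the prepachytene arrays alone called 11 genes in all. Spermatid markers were also higher in PWD prepachytene cells, in 4 of 10 genes, with a median of 0.86, and their part in this result was not tested.

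*Dnah8* was at 12.67 and 12.32 in PWD and 10.11 and 10.25 in B6 prepachytene cells, a difference of 2.31 ± 0.13 (adjusted p = 2.2e-05). Its other probeset differed by 0.44, which did not pass (adjusted p = 0.278). *Spag17* was at 9.76 and 10.02 in PWD and 7.27 and 7.39 in B6 (2.57 ± 0.24, adjusted p = 2.7e-04), and *Hydin* at 7.85 and 7.68 in PWD and 5.75 and 5.94 in B6 (1.92 ± 0.15, adjusted p = 1.0e-04). In the main probesets of these 3 genes no array of PWD overlapped an array of B6. The next in size among the genes higher in PWD were *Cfap161*, *Tekt2*, *Cfap126*, *Dnah6*, *Dnah12*, *Tekt3*, *Dnah2* and *Cfap65*, at 1.57 to 2.38. *Dnah9*, also called, lay under background in prepachytene cells of both strains, so that its difference has no measured size. The 4 lower genes were *Dnah7a*, *Dnaaf6*, *Cfap299* and *Tekt5*.

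In pachytene cells 12 were higher and 2 lower in PWD, against 12.1% and 5.05% of all genes, and centring left 7 higher and 5 lower. In spermatids 7 were higher and 4 lower, against 9.56% and 7.54% of all genes, or 7 and 7 after centring. Leaving out single arrays gave totals of 6 to 20 in pachytene cells, with 6 without B6 pachytene 2 or PWD pachytene 2, and 4 to 14 in spermatids, with 4 without B6 spermatids 2. By main probeset, *Dnaaf5*, *Dnali1* and *Rsph1* were higher and *Dnah7a* and *Tekt5* lower in PWD in all 3 populations. *Dnaaf5*, a factor of arm assembly, was at 10.01 and 10.1 in PWD and 8.31 and 7.85 in B6 pachytene cells (1.97 ± 0.25, adjusted p = 0.00167). None of its other probesets was called between the strains in any population (0.47, 0.06 and −0.02 in pachytene cells). *Dnah7a* was at 6.6 and 6.54 in PWD and 8.63 and 8.93 in B6 pachytene cells (−2.21 ± 0.43, adjusted p = 0.0138). *Cfap36* was higher in PWD in prepachytene (1.01, adjusted p = 0.00358) and in pachytene cells (0.94, adjusted p = 0.00778).

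Where a gene had several probesets, they did not always give the strains the same order. In prepachytene cells the main probeset of *Dnah1* was higher in PWD by 1.06 ± 0.16 (adjusted p = 0.00239). The other probeset was at 2.58 and 2.96 in PWD and 5.87 and 4.99 in B6 there, too near background for a size, and was lower in PWD in pachytene cells (−2.95, adjusted p = 5.0e-04) and in spermatids (−3.19, adjusted p = 2.4e-04). In spermatids the probesets of *Dnali1* were called in opposite directions, at 0.87 and −0.94. The other probeset of *Spag17* was higher in PWD in prepachytene cells (1.18, adjusted p = 0.0206). It was lower in PWD in pachytene cells (−1.72, adjusted p = 0.00569) and in spermatids (−1.94, adjusted p = 0.00265). The main probeset of *Spag17* did not pass in those 2 populations (0.84, adjusted p = 0.061 and 0.36, adjusted p = 0.404).

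**Figure D5:**
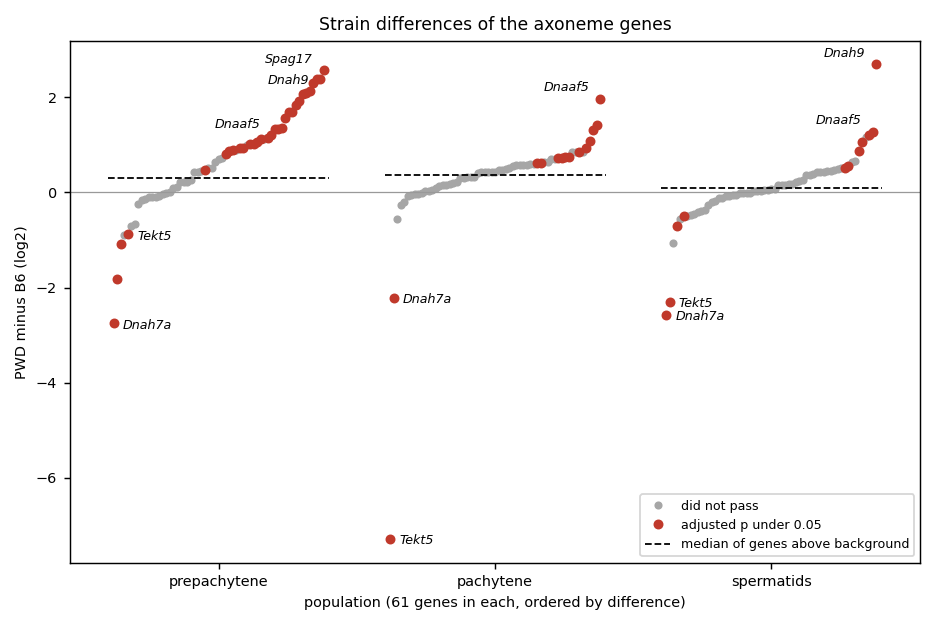
PWD minus B6 log2 difference (y axis) of the 61 axoneme genes in each population (x axis, genes in order of their difference), with those at an adjusted p under 0.05 in red. The dashed line is the median of all genes above background, and *Tekt5* in pachytene cells lies lowest at a fitted −7.28, with its PWD arrays under background.

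*Tekt5*, a tektin known from the sperm flagellum, had the largest strain difference of the set. In prepachytene cells it was at 5.2 and 5.42 in PWD and 6.23 and 6.15 in B6. In pachytene cells it was at 3.02 and 2.62 in PWD and 10.15 and 10.04 in B6, and in spermatids at 7.32 and 7.4 in PWD and 9.79 and 9.52 in B6. The PWD pachytene arrays lay far under background, so that the signal of the only *Tekt5* probeset was at least 27.8-fold lower in PWD (fitted difference −7.28 ± 0.18, adjusted p = 4.9e-07). Transcript level and probe binding cannot be told apart in it. *Tekt5* rose into pachytene by 3.91 in B6 (adjusted p = 1.1e-06). In PWD it was at the background level in prepachytene cells, with a mean of 5.31, and under it in pachytene cells, so that no change was measured there. Spermatids were above background in both strains, and the difference from pachytene cells in B6 was −0.44, which did not pass (adjusted p = 0.115). The strain difference of the change was called at both steps (adjusted p = 6.7e-06 into pachytene and 3.8e-05 into spermatids), with fitted sizes that rest on the PWD pachytene arrays under background.

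The rise into pachytene differed between the strains in 11 genes, 2 with a larger and 9 with a smaller change in PWD (6.39% and 7.24% of all genes). This total was 4 without B6 pachytene 2 and 21 without PWD prepachytene 1. *Dnah8* rose by 1.99 in PWD and by 3.87 in B6, a strain difference of −1.88 ± 0.19 (adjusted p = 7.0e-04), and its strain difference within pachytene cells did not pass (0.43 ± 0.13, adjusted p = 0.0758). *Dnah2* (−1.38 ± 0.26), *Spag17* (−1.72 ± 0.34) and *Cfap126* (−1.49 ± 0.23) also rose less in PWD. The other probeset of *Dnah8* rose by 0.63 in PWD and by 0.5 in B6. *Dnaaf6* rose more in PWD, by 5.97 against 3.84 in B6 (2.13 ± 0.51, adjusted p = 0.0334), and its PWD prepachytene arrays lay at or under background. *Hydin* rose less in PWD in its main probeset (−0.84 ± 0.21, adjusted p = 0.043), and its other probeset was called in the opposite direction (1.83 ± 0.38, adjusted p = 0.0195), with prepachytene arrays of both strains and B6 pachytene arrays under background. *Cfap300*, an assembly protein, rose by 1.92 in PWD and differed by 0.37 in B6, which did not pass (1.55 ± 0.33, adjusted p = 0.0219). At the step into spermatids *Tekt5* alone differed between the strains, and none had a smaller change in PWD (1.89% and 2.77% of all genes).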

How the data were processed

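Total RNA of flow-sorted testicular cells of PWD and B6 males was hybridised to 12 Affymetrix mouse genome arrays, 2 for each of 6 groups. The deposited values were log2 probeset summaries made by the authors with GCRMA, a background correction by probe sequence with scaling between arrays, with no version stated in the labels. The study's methods name RMA and a custom probe grouping instead, and the values hold the standard probesets, so the labels were followed. Values were not normalized again.

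Of 45101 probesets, 64 controls were left out. Gene names came from the platform annotation, updated through a RefSeq gene table of the mouse. Of the rest, 34945 probesets named 1 gene, 932 several and 9160 none, and 204 of those with 1 gene matched no entry of the gene table and kept their name. Each gene was represented by its probeset of highest average over all 12 arrays. A group-means model of the 6 groups was fitted with limma 3.58.1 (R 4.3.3, eBayes with trend) over 45037 probesets and was tested on simulated data. Population differences were averaged over strains, and strain differences and their change between populations were tested within the same fit. Tables and motif searches were made with numpy 2.4.6 and pandas 2.3.3 under Python 3.11.15, and plots with matplotlib 3.10.9.

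The genes named were, for each comparison of populations, the 10 with the largest rise and fall among those called and above background. Also named were genes whose probesets moved opposite ways and the 4 highest of each role. Of the genes called in a strain comparison, some are given by name and the others by count only. The axoneme genes and all lists were chosen with earlier results of these data known. The rule of at least 1 log2 unit and the differences within each strain were added after the values were seen. The alternatives tried were other scalings, variance priors, filters, probeset rules, thresholds, array weights, replicate blocks and leaving out each array. Same-numbered arrays of different groups did not deviate together (1 of 15 group pairs above a correlation of 0.1), so numbers were not used as pairs. The number of arrays limits the precision.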

Additional observations from a re-analysis of the deposited data

Results flagged for a closer look

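In 11 axoneme genes the change between prepachytene and pachytene cells differed between PWD and B6 by limma's test of the difference itself. For *Tekt5* the fitted difference was −6.39 log2 units into pachytene and 4.98 into spermatids. Both are fitted from PWD pachytene arrays far under background and are not measured sizes, and a fall into pachytene in PWD was not measured. Its strain difference in pachytene cells was called under each of 24 alternatives. The rise into pachytene was smaller in PWD for *Dnah8* (−1.88), *Spag17* (−1.72), *Cfap126* (−1.49), *Dnah2* (−1.38), *Dnah12* (−1.12), *Cfap43* (−1.10), *Hydin* (−0.84) and *Rsph1* (−0.72). The other probeset of *Hydin* was called in the opposite direction (1.83), with several of its groups under background. The other probeset of *Dnah8* rose by 0.63 in PWD and by 0.5 in B6. The rise was larger in PWD for *Dnaaf6* (2.13) and *Cfap300* (1.55). Of 24 alternatives, the call was lost in 0 for *Dnah8* and *Cfap126*, 1 for *Dnah2*, 2 for *Spag17*, 6 for *Cfap300*, 8 for *Rsph1*, 10 for *Dnaaf6*, 12 for *Cfap43*, 14 for *Dnah12* and 17 for *Hydin*. Spermatid markers were higher in PWD than in B6 prepachytene cells (4 of 10 genes, median 0.86), and their change into pachytene was lower in PWD in 2 genes (median −0.66). Their part in these differences was not tested.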

How the results depend on the processing

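The number of axoneme genes called in the comparisons of populations stayed within 1.5 times its value under each other scaling, filter, prior, block, probeset rule and threshold tried, and leaving out single arrays gave 52 to 54 into pachytene, 33 to 41 into spermatids and 52 to 55 between spermatids and prepachytene cells. Asking for at least 1 log2 unit, a rule added after the values were seen, left 23 of 39 genes into spermatids. The strain comparisons moved more, and the cause was not tested. In prepachytene cells (31 genes) array weights gave 19, the arrays compared alone 11, an adjusted p under 0.01 gave 18, and leaving out single arrays 21 to 32. In pachytene cells (14 genes) array weights gave 25, probesets above background alone 22, quantile normalization 9 (4 higher and 5 lower) and an adjusted p under 0.01 gave 6. Leaving out single arrays gave 6 to 20 there, with 6 without B6 pachytene 2 or PWD pachytene 2 and 9 without B6 pachytene 1. In spermatids (11 genes) the arrays compared alone gave 3, the replicate block 7 and an adjusted p under 0.01 gave 4. Single arrays gave 4 to 14 there, with 4 without B6 spermatids 2, 5 without PWD spermatids 2, 6 without B6 spermatids 1 and 7 without either B6 pachytene array. For the strain difference of the change into pachytene (11 genes) array weights gave 7, centring and quantile normalization 18 each, the arrays compared alone 6 and an adjusted p under 0.01 gave 3. Single arrays gave 4 to 21, with 21 without PWD prepachytene 1, 4 without B6 pachytene 2, 5 without B6 prepachytene 2, 6 without B6 pachytene 1, and 7 without B6 prepachytene 1, PWD pachytene 1 or either B6 spermatid array. For that into spermatids (1 gene) array weights gave 10, the arrays compared alone 5, the mean of probesets, centring and a fit without trend 2 each, and single arrays 1 to 3, with 3 without B6 spermatids 1 or PWD spermatids 2 and 2 without PWD pachytene 1. Centring moved the median of all genes to 0.34 into pachytene, 0.27 into spermatids and −0.24, −0.22 and −0.11 between strains in prepachytene cells, pachytene cells and spermatids. With the mean of a gene's probesets the direction turned for *Dnali1* (0.35) into spermatids, for *Cfap410* (0.04), *Dnaaf2* (−0.19) and *Dnal1* (0.31) between spermatids and prepachytene cells, for *Dnah1* (−0.80) and *Spag16* (−0.07) between strains in prepachytene cells and for *Dnali1* (−0.04) between strains in spermatids, and with quantile normalization for *Dnaaf4* (0.07) between spermatids and prepachytene cells. Over 215 pairs of a named gene and a comparison, 4715 of 5149 values kept direction and call, 426 lost the call and 8 turned. The block of strain and number together changed no call.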
